A study of Homo sapiens with 3 samples.

Results

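The genes described here encode the NF-kB transcription factors (RELA, RELB, REL, NFKB1 and NFKB2) and proteins that hold them back or are made in answer to them (NFKBIA, NFKBIB, NFKBIE, TNFAIP3 and BIRC3). They were taken by symbol from a table of normalized counts, and all 10 were found among its 17329 gene rows. RNA came from Jurkat cells, an established human T-lineage leukaemia line, in 3 libraries of polyadenylated RNA. All cells were kept for 48 hours in medium with serum. The control had nothing added, the oxamate culture received sodium oxamate at 50 mM, and the oxamate+lactate culture received the same with L-sodium lactate at 10 mM. Oxamate is an inhibitor of lactate dehydrogenase, and the series asked how lactylation of histone H3 bears on transcription. With 1 library per condition nothing below could be checked between replicates, and no p-values are given. Words such as higher and lower set 1 library against another, not conditions.

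NF-kB is a family of dimers that wait in the cytoplasm bound to IkB proteins. When a receptor signals, the IkB kinase complex marks IkB for destruction and the dimer moves to the nucleus, where it binds kappa B sites. Several of the inhibitors' genes are themselves switched on by NF-kB, which closes a feedback loop. In T cells the pathway also runs downstream of the antigen receptor, with BCL10 and MALT1 among its adaptors.

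The table gives gene symbols only. To show what the members have in common at their starts, the RefSeq promoters of build GRCh38.p14, 250 bases before to 50 after each start, were searched on both strands for the NF-kB consensus decamer. Of the 10 members, 8 had an entry (not RELB and NFKBIE), with 13 windows in all. The consensus was found in 7 of these 8 genes, in 8 of the 13 windows, and in none of the RELA windows. Of all 35116 windows of this length, 5.91% hold a match, and of 27305 genes 7.09% do in at least 1 window. A match is a description of the letters and not evidence of binding. The stretch before the NFKBIA start is shown whole because this gene had the highest ratio to control among the members over the floor used below. Capitals mark the consensus match, which begins 81 bases before the start and reads on the strand opposite to the gene.
NFKBIA, chr14:35404750-35404999, minus strand: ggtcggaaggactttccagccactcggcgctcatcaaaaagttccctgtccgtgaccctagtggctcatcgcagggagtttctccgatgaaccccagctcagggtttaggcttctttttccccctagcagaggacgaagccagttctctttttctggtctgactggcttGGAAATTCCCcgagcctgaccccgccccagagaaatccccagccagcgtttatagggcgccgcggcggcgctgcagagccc

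The other matches are shown so that the sites can be compared letter by letter. Each window has 30 bases, 5′ to 3′ on the gene's strand, with the matched bases in capitals.
BIRC3, chr11:102317275-102317304, plus strand: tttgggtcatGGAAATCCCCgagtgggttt
BIRC3, chr11:102317339-102317368, plus strand: tattaccgctGGAGTTCCCCtaagtcctaa
NFKB1, chr4:102501300-102501329, plus strand: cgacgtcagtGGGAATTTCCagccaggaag
NFKB2, chr10:102394461-102394490, plus strand: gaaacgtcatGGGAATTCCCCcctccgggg
NFKB2, chr10:102394490-102394519, plus strand: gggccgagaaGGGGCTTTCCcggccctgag
NFKB2, chr10:102395519-102395548, plus strand: aacccccaccGGGGCTTCCCggattctcct
NFKB2, chr10:102395674-102395703, plus strand: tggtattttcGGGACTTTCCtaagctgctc
NFKBIB, chr19:38899931-38899960, plus strand: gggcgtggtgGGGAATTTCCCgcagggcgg
REL, chr2:60881517-60881546, plus strand: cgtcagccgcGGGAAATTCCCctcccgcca
TNFAIP3, chr6:137867188-137867217, plus strand: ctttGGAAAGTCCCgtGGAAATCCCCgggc

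In REL, NFKBIB and the first NFKB2 site, matches on the 2 strands overlap, because these sites are nearly palindromes. TNFAIP3 has 2 matches beginning 67 and 55 bases before its start, and BIRC3 has them farther out, at 199 and 135. The NFKB2 sites belong to the windows of 2 of its 3 listed starts. On the gene's strand or the other, NFKB1, NFKBIA, NFKBIB and REL share 1 decamer, GGGAATTTCC.

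**Figure D1:**
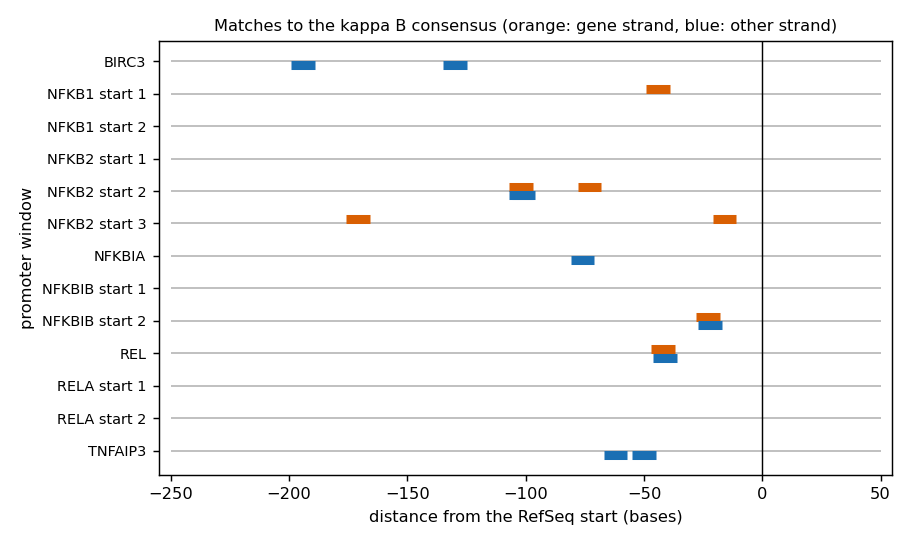
Matches to the NF-kB consensus in the 13 RefSeq promoter windows of 8 members. The x axis is the distance from the start in bases, each grey line is 1 window, and bars are matches on the gene's strand (orange) or the other strand (blue). All matches lie before the RefSeq start of their own window, which need not be the first start of the gene. The windows of RELA have none.

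Genes with and without the consensus in a promoter window had nearly the same median ratios. Among genes with a mean of at least 50 and a promoter entry, the median log2 ratio of oxamate against control was 0.08 for the 742 with a match and 0.08 for the 7685 without. For oxamate+lactate against control these medians were 0.00 and -0.01.

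Before the members' ratios, the scale of the libraries has to be known. The gene rows summed to between 8171633 and 8821115 per library, and the number of reads behind them, the depth, is unknown. Ratios are log2((value + 1)/(value + 1)), which slightly understates the differences of low genes, and counts of genes use those with a mean over the 3 libraries of at least 50, the floor. Over these 12292 genes the median log2 ratio was 0.08 for oxamate against control, -0.09 for oxamate+lactate against oxamate and -0.01 for oxamate+lactate against control. The ERCC spike-in RNAs over the floor, 21 in number, had SDs of 0.15, 0.13 and 0.21 in these comparisons, a spread of handling and not of cultures. With columns scaled to equal gene sums, the first of these medians moved from 0.08 to -0.02. Of the T-lineage markers, 14 of 14 were in the table and 11 were over the floor. Of 21 markers of B, myeloid, erythroid, epithelial and fibroblast cells, 7 were in the table and 2 over the floor, CD79A and COL1A1. Their values summed to between 345 and 393 per library, against 15989 to 18655 for the T-lineage markers. In such bulk RNA, fewer cells of a type and less RNA per cell cannot be told apart.

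Among the NF-kB genes, NFKBIA was higher in both treated libraries than in control (1.54-fold and 1.40-fold). REL and NFKB2 were lower in oxamate+lactate than in either other library, and TNFAIP3 was highest there. Of the members, 9 passed the floor and RELB did not. In oxamate against control 1 of these 9, NFKBIA, was at least 1.5-fold higher, against a background of 7.48% of all genes, and 0 were lower by that much (background 3.98%). In oxamate+lactate against oxamate 0 were 1.5-fold higher (0.252%) and 0 lower (0.903%). The same held for oxamate+lactate against control, with 0 higher (2.99%) and 0 lower (3.07%). The members' median log2 ratios were 0.11, -0.10 and 0.07, beside 0.08, -0.09 and -0.01 for all genes. As a group they stayed close to the other genes, and what follows are differences of single members.

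**Figure D2:**
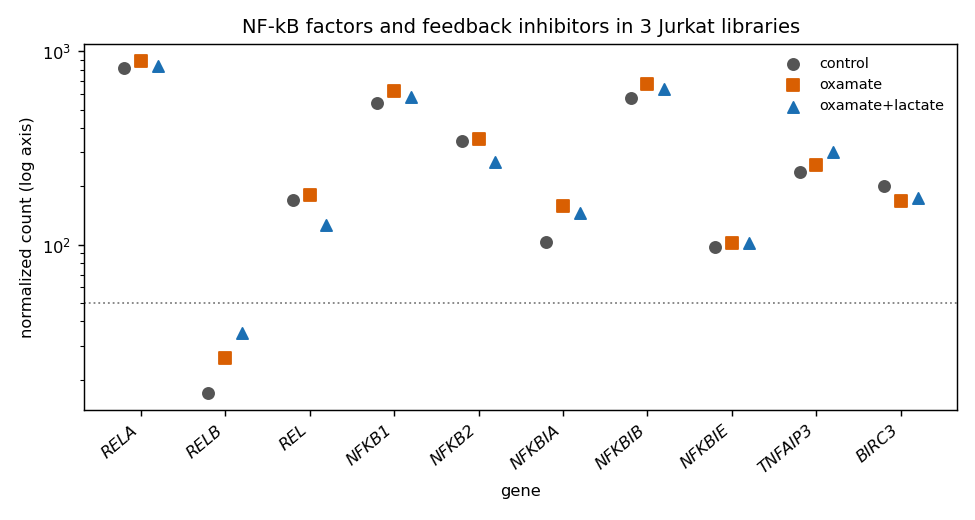
Normalized counts of the 10 members (log axis) in the control (grey circles), oxamate (orange squares) and oxamate+lactate (blue triangles) libraries, 1 library each. The dotted line is the floor of 50, below which RELB lies. Control is lowest for 7 of the 10 members, NFKBIA among them, and REL and NFKB2 are lowest in oxamate+lactate.

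RELA, the p65 subunit that carries an activation domain and pairs with p50 in the most common dimer, had 819 normalized counts in control, 896 with oxamate and 837 with oxamate+lactate. It was among the steadiest members, with a highest value 1.09 times the lowest. NFKB1, the gene of the p105 precursor that is trimmed to p50, had 538, 626 and 578. Its log2 ratio of oxamate against control was 0.22, higher than those of 66.3% of all genes over the floor. So the 2 genes of the classical dimer kept nearly the same proportion: there were 65.7, 69.9 and 69.1 counts of NFKB1 per 100 of RELA. RELA carries an overlapping lincRNA, AP001362.2, whose reads cannot be told apart, since the library kit does not mark strand.

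REL, the c-Rel subunit prominent in lymphocytes, had 171 normalized counts in control, 180 with oxamate and 126 with oxamate+lactate. Control and oxamate lay close together, and oxamate+lactate was 1.43-fold lower than oxamate (log2 ratio -0.51). Only 1.91% of the 4760 genes of like level, those with a mean within 2-fold of that of REL, had a lower ratio in this comparison, and the SD of their ratios was 0.21. Against control the log2 ratio of oxamate+lactate was -0.44, and 8.97% of these genes had a lower one. An annotated noncoding RNA, AC010733.2, overlaps the end of REL. Per 100 counts of RELA, a ratio that no scaling of the libraries can alter, REL had 20.9, 20.1 and 15.1.

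NFKB2, the gene of the p100 precursor that acts as an IkB until it is cut to p52, had 345 normalized counts in control, 350 with oxamate and 269 with oxamate+lactate. This is the order seen for REL, with the first 2 libraries alike and oxamate+lactate lowest. Oxamate+lactate was 1.30-fold lower than oxamate (log2 ratio -0.38), and 3.79% of the 5619 genes of like level had a lower ratio. NFKB2 was the member nearest to REL in pattern. Its distance from REL in the plane of the log2 ratios of oxamate and of oxamate+lactate, each against control, was 0.10, which put it at rank 21 of the 12291 other genes over the floor. REL and NFKB2 were the 2 members over the floor with a log2 ratio of oxamate+lactate against oxamate of -0.32 or lower, against a background of 8.8% of all genes.

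RELB, the partner of p52 in the alternative pathway, was the lowest member, with 17 normalized counts in control, 26 with oxamate and 35 with oxamate+lactate. Control was thus lowest and oxamate+lactate highest, unlike NFKB2, which was lowest in oxamate+lactate. Oxamate+lactate was 2-fold higher than control on the value + 1 scale, and 93.1% of the 3362 genes of like level had a lower one. Genes at that level scatter widely, with an SD of 0.68, and with a pseudocount of 10 the log2 ratio of RELB was 0.74.

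NFKBIA encodes IkB-alpha, an inhibitor that NF-kB induces and that ends a response by carrying dimers out of the nucleus. It had 103 normalized counts in control, 159 with oxamate and 145 with oxamate+lactate. Both treated libraries lay above control and near each other. Oxamate was 1.54-fold higher than control (log2 ratio 0.62), and 92.1% of the 4468 genes of like level had a lower ratio. Oxamate+lactate was 1.40-fold higher than control (0.49), with 92.9% of them lower. Per 100 counts of RELA there were 12.6 of NFKBIA in control, 17.7 with oxamate and 17.3 with oxamate+lactate. The call of 1.5-fold ends when ratios are taken relative to the median of all genes (0.54), with equal gene sums (0.52), with a pseudocount of 10 (0.58) or with the trend on GC content and length removed (0.55).

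The other IkB genes moved less. NFKBIB, the gene of IkB-beta, which is a steadier inhibitor than IkB-alpha, had 572 normalized counts in control, 682 with oxamate and 641 with oxamate+lactate. Its log2 ratios against control were 0.25 and 0.16, in the same order of libraries as those of NFKBIA. NFKBIB shares exon sequence with SIRT2 on the other strand, and reads of the 2 cannot be told apart. NFKBIE, the gene of IkB-epsilon, had 97, 102 and 102, the narrowest range of all members, and its highest value was 1.05 times its lowest.

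TNFAIP3 encodes an enzyme that removes and adds ubiquitin on signalling proteins and so damps the IkB kinase. It had 238 normalized counts in control, 257 with oxamate and 303 with oxamate+lactate. Here the library with lactate was the highest, apart from the other 2. The log2 ratio of oxamate+lactate against oxamate was 0.24, and 96.3% of the 5421 genes of like level had a lower ratio. Against control it was 0.35, with 91.0% lower. TNFAIP3 and NFKBIA were the 2 members over the floor whose log2 ratio of oxamate+lactate against control was at least 0.32, beside 11.4% of all genes. REL and NFKB2 were the 2 at -0.32 or lower, beside 12.4%. TNFAIP3 is overlapped by an antisense gene, AL357060.1.

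BIRC3 encodes a ubiquitin ligase that joins the receptor complex in the classical pathway and, with TRAF2 and TRAF3, keeps the kinase of the alternative pathway low. It had 201 normalized counts in control, 169 with oxamate and 175 with oxamate+lactate, and was the only member highest in control. The log2 ratio of oxamate against control was -0.25, and 19.7% of the 4970 genes of like level had a lower one. Its close relative BIRC2 had 388, 317 and 344, also highest in control.

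**Figure D3:**
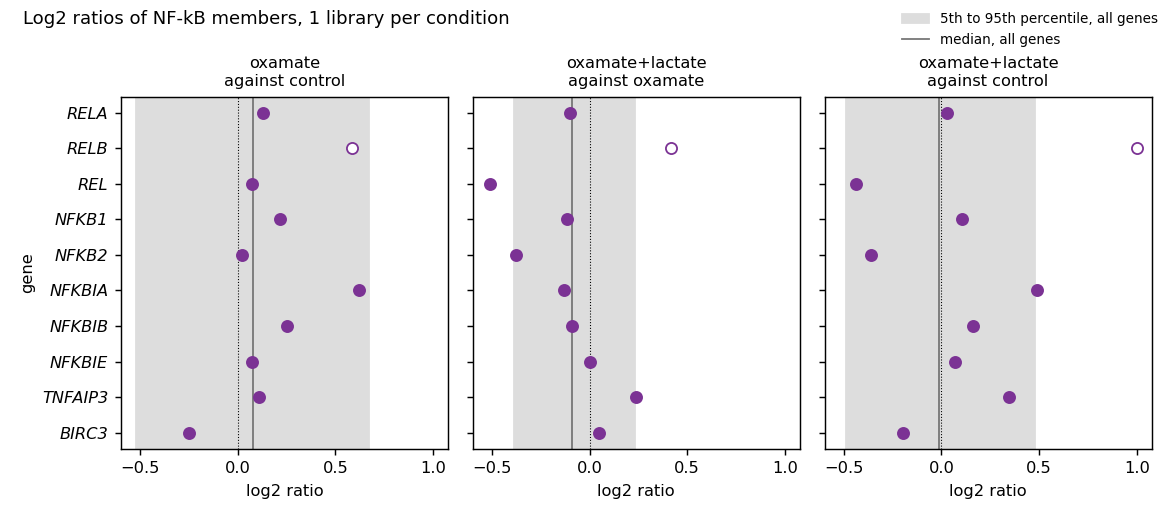
Log2 ratios of the 10 members in 3 comparisons (1 library per condition), with the 5th to 95th percentile of all genes over the floor in grey and their median as a grey line. The open circle is RELB, under the floor. In the middle panel REL lies below the grey range, NFKB2 at its lower end, TNFAIP3 just above its upper end and RELB farther above.

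Of the 9 members over the floor, 6 were highest in oxamate, 1 in oxamate+lactate and 1 in control, and NFKBIE was tied. Among all genes over the floor, 50.8% were highest in oxamate, 12.4% in oxamate+lactate and 35.7% in control. Lowest values of the 9 members fell in control for 6, in oxamate for 1 and in oxamate+lactate for 2. For all genes these shares were 43.8%, 20.5% and 34.1%. The value of oxamate+lactate lay between the other 2 for 5 of the 9 members and for 51.6% of all genes. The comparisons share libraries, so their ratios are not independent of each other.

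Levels between genes were compared per kilobase of the longest GENCODE 29 transcript, which need not be the form these cells make. On this scale NFKBIB (260.0 to 310.0 counts per kilobase over the 3 libraries) and RELA (257 to 281) were the most abundant, with ranges that overlap. NFKB1 followed at 132 to 153, apart from its neighbours on both sides. NFKB2 (78.7 to 102) and NFKBIA (66.1 to 102) overlapped, and TNFAIP3 came next at 50.3 to 64.0. NFKBIE (37.6 to 39.5) and BIRC3 (32.5 to 38.7) overlapped, as did REL (11.2 to 16.0) and RELB (7.41 to 15.3) at the low end. REL has a longest transcript of 11255 bases, which places it low on this scale.

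The genes whose pattern over the 3 libraries was most like that of NFKBIA, among the 4467 others within 2-fold of its mean, were CTNS, MPV17L2, ZNF394, AC113189.5 and IKBKE, at distances of 0.01 to 0.02. IKBKE encodes a kinase related to the IkB kinases and had 156 normalized counts in control, 238 with oxamate and 218 with oxamate+lactate. The member nearest to NFKBIA was NFKBIB, at a distance of 0.49 and rank 3011 of 12291. For REL the nearest of 4759 genes were IFI6, RP11-715J22.4, MSTO2P, RP11-1094M14.11 and RP11-87F15.2, at 0.06. IFI6, an interferon-induced gene, had 154, 162 and 118. With 3 libraries such likeness rests on 2 ratios per gene.

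Other genes of the pathway were read from 5 lists with 136 entries, of which 99 were in the table and 80 over the floor. In oxamate against control 5 of the 80 were 1.5-fold higher or more and 2 were as far below control, shares of 6.25% and 2.5% beside 7.48% and 3.98% of all genes. In oxamate+lactate against oxamate 0 were higher and 1 lower, beside 0.252% and 0.903% of all genes. In oxamate+lactate against control 2 were higher and 2 lower, beside 2.99% and 3.07%. These shares of the listed genes are near those of all genes. The split depended on the scaling: with equal gene sums 3 were higher and 4 lower in oxamate than in control. For all genes the shares then were 4.63% higher and 5.71% lower. For oxamate+lactate against oxamate, ratios relative to the median of all genes left 0 listed genes higher and 0 lower. Of all genes, 0.537% were then higher and 0.423% lower. For oxamate+lactate against control, equal ERCC sums gave 3 listed genes higher and 2 lower, beside 4.12% and 2.16% of all genes.

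Among 26 receptors that signal to NF-kB, 16 were in the table and 8 over the floor. TNFRSF8, which encodes CD30, had 137 normalized counts in control, 257 with oxamate and 198 with oxamate+lactate, a log2 ratio of 0.90 for oxamate against control. IL1RAP, the shared subunit of interleukin-1 family receptors, had 152, 81 and 83, with both treated libraries below control (-0.90 and -0.87). FAS, the death receptor, had 162, 110 and 90 (-0.55 and -0.84 against control), and it overlaps ACTA2. TNFRSF25, a death receptor of T cells, had 95, 83 and 113, the highest ratio of oxamate+lactate against oxamate among all 80 listed genes (0.44), and it overlaps ESPN and PLEKHG5. TNFRSF1A, the main receptor of tumour necrosis factor on most cells, differed little, with 591, 602 and 604.

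All 28 genes of the IkB kinase complex, its upstream kinases and adaptors were over the floor. Their median log2 ratio of oxamate against control was 0.17, beside 0.08 for all genes. Of the catalytic subunits of the kinase complex itself, CHUK stayed near control, with 552, 600 and 567 normalized counts. IKBKB had 766, 907 and 824, a log2 ratio of 0.24 for oxamate against control. CHUK overlaps ERLIN1. MAP3K14, the NF-kB-inducing kinase that drives the alternative pathway, had 103 in control, 182 with oxamate and 158 with oxamate+lactate. Its log2 ratios against control were 0.82 and 0.61, and an antisense gene, MAP3K14-AS1, overlaps it. Among the genes of the proteins that keep this kinase low in resting cells, TRAF2 (383, 525 and 449) and TRAF3 (1195, 1489 and 1315) were lowest in control. BIRC2 and BIRC3 were highest there. These are RNA values, and a link between them and MAP3K14 was not tested. IRAK1, a kinase of interleukin-1 and Toll-like receptors, had 1191, 2200 and 1939 (0.88 and 0.70 against control), while its partner IRAK4 had 488, 366 and 348 (-0.41 and -0.49). TAB1, a partner of the kinase MAP3K7, had 296, 346 and 263, the lowest ratio of its list for oxamate+lactate against oxamate (-0.39). Of the adaptors downstream of the antigen receptor, MALT1 had 176, 181 and 199, and BCL10 had 125, 145 and 139.

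Of the ubiquitin editors and other brakes, 20 of 21 were in the table and over the floor. RBCK1 had the lowest ratio of oxamate against control of any listed gene over the floor, with 1845 normalized counts in control, 912 with oxamate and 1232 with oxamate+lactate. It encodes HOIL-1, a subunit of the ligase that builds linear ubiquitin chains. Its log2 ratio was -1.02 for oxamate against control and 0.43 for oxamate+lactate against oxamate, the highest of its list in that comparison. Of the other subunits of this ligase, RNF31 had 276, 241 and 245, in the same order of libraries but with smaller differences, and SHARPIN had 558, 651 and 636, lowest in control. RNF31 overlaps PSME2 and AL136295.5, and SHARPIN overlaps MAF1 and WDR97. ZC3H12A, an RNase that degrades cytokine transcripts, had 65, 88 and 57, and was the 1 listed gene at least 1.5-fold lower in oxamate+lactate than in oxamate (-0.62). Relative to the median of all genes it no longer reached 1.5-fold. COMMD1, which promotes the breakdown of RELA, had 51, 71 and 69. CYLD, a deubiquitinase, had 431, 467 and 497.

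Of 7 other IkB-like proteins and partners, 5 were in the table. NFKBID, a nuclear IkB, had 78, 74 and 59 normalized counts and was lowest in oxamate+lactate (-0.40 against control). NKRF, a repressor of NF-kB, had 253, 344 and 314, and NKAP had 197, 148 and 169. NKRF overlaps UBE2A, and NKAP overlaps AKAP14.

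Of 54 target genes, 30 were in the table and 19 over the floor, and most inducible cytokine and chemokine genes of the list, such as TNF, IL2, CXCL8 and CCL3, have no row among those analysed here. The median log2 ratio of the 19 was 0.21 for oxamate against control, -0.12 for oxamate+lactate against oxamate and 0.01 for oxamate+lactate against control. For all genes over the floor these medians were 0.08, -0.09 and -0.01. IRF1, an interferon regulatory factor, had 268 normalized counts in control, 412 with oxamate and 284 with oxamate+lactate, so only the oxamate library stood apart. CFLAR, an inhibitor of caspase-8, had 116, 171 and 131, in the same order. ICAM1, an adhesion molecule, had 105, 88 and 106, and KLF10 had 125, 89 and 96. The survival genes BCL2 (192, 222 and 234) and BCL2L1 (977, 1197 and 1151) were lowest in control, whereas XIAP, an inhibitor of caspases, was highest there (646, 620 and 624). The XIAP difference was small, with a log2 ratio of -0.06 for oxamate against control beside an ERCC SD of 0.15. Of the 19 targets, 10 had a ratio of oxamate against control above the median of all genes, beside 50% of all genes. The targets named here did not all lie on the same side of control as NFKBIA, and IRF1 overlaps C5orf56.

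**Figure D4:**
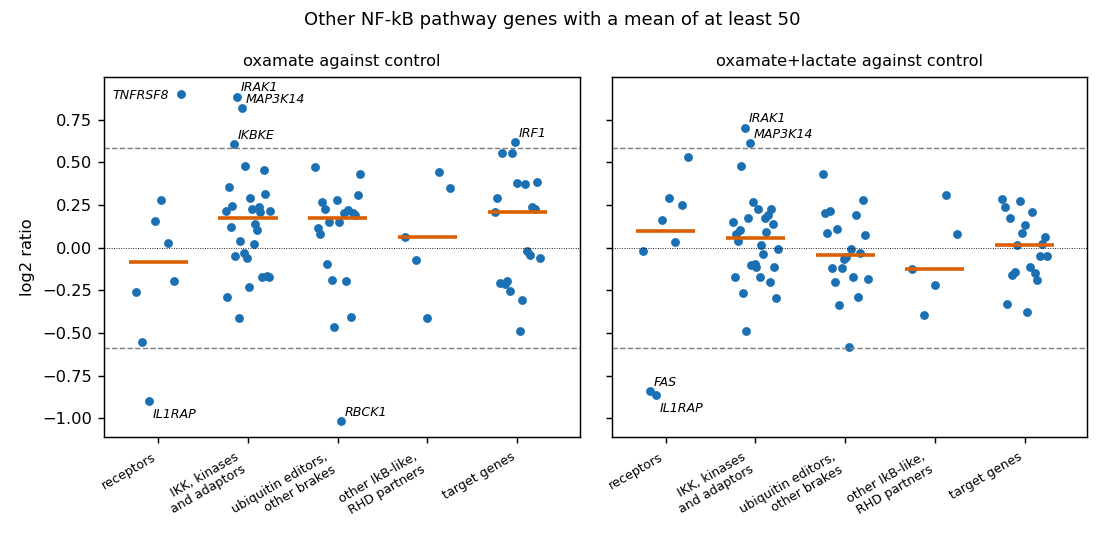
Log2 ratios of the 80 other pathway genes over the floor, by list, for oxamate against control (left) and oxamate+lactate against control (right). Points are genes, orange bars are list medians, dashed lines mark 1.5-fold and named genes are at least 1.5-fold different. RBCK1 is the lowest point on the left, and IRAK1 and MAP3K14 lie above the upper line on both sides.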

How the data were processed

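Polyadenylated RNA of 3 Jurkat cultures was sequenced, 1 library per condition, and samples were grouped by their treatment label. The authors deposited 1 table of 17365 rows, 36 of them ERCC spike-ins, in a unit named normalized counts. The deposited values are whole and were taken as a score, that is read counts normalized and then rounded by the authors, and no count model was used. The submitters' processing notes name STAR 2.7.1a, HTSeq 0.11.2, FastQC 0.11.9 and the build hg19. How values were normalized, which genes were filtered out and which annotation was used was not given in these sources.

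Ratios were log2((value + 1)/(value + 1)), and genes with a mean of at least 50 that were at least 1.5-fold different were counted (Python 3.11.15, pandas 2.3.3). The computation was tested on simulated data. No test was possible with 1 library per condition. The members, lists and rules were chosen with earlier results of these data known. Named pathway genes were those at least 1.5-fold different, the ends of each list, and genes added after their values were seen to complete a complex or route (TRAF2, TRAF3, BIRC2, CHUK, IKBKB, BCL10, RNF31, SHARPIN, CYLD, TNFRSF1A, CFLAR, BCL2L1 and XIAP). Alternatives were other pseudocounts, floors, folds and scalings, and removal of the trend on GC content and length, which GENCODE 29 gave for 87.3% of the genes over the floor. Promoters came from RefSeq (GRCh38.p14), a build other than that of the files, and were joined by symbol. Some listed genes are not reported here.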

Additional observations from a re-analysis of the deposited data

How the results depend on the processing

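No paired analysis was possible because each condition has 1 library. For the members, 171 of 180 single ratios moved by less than the ERCC SD of their comparison under other pseudocounts and scalings, and 9 moved by more, with the GC and length trend removed or, for RELB, with a pseudocount of 10. With that trend removed, RELA (-0.03), NFKB2 (-0.22) and NFKBIE (-0.13) fell below 0 in oxamate against control. REL, NFKB2 and NFKBIE did so too relative to the median of all genes and with equal gene sums. REL, NFKB2, NFKBIA, TNFAIP3 and RELB kept the sign of their ratios of oxamate+lactate against control under all 6 of these settings. The median of the members changed sign with equal gene sums (0.01) and with the trend removed (0.02) for oxamate+lactate against oxamate. For oxamate+lactate against control it did so with the trend removed (-0.00386).

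The count of members at least 1.5-fold higher in oxamate than in control was 1 as reported, beside 7.48% of all genes. It was 0 with a pseudocount of 10 (6.63% of all genes), relative to the median of all genes (5.16%) or with equal gene sums (4.63%). It was also 0 with the trend removed (3.86%), with a floor of 200 (5.96%) or at 2-fold (1.21%). It was 2 with no floor, which adds RELB, beside 12.4% of all genes. For oxamate+lactate against control it was 1 with no floor, beside 8.54% of all genes. With the threshold at a log2 ratio of 0.32, 2 members were lower in oxamate+lactate than in oxamate, beside 8.8% of all genes. Against control 2 were higher and 2 lower, beside 11.4% and 12.4% of all genes.

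For the pathway lists in oxamate against control, 3 genes were higher relative to the median of all genes, beside 5.16% of all genes. There were also 3 with equal gene sums (4.63%), with the trend removed (3.86%) or with a floor of 200. The genes lower were 4 with equal gene sums, beside 5.71% of all genes, and 1 with a floor of 200. At that floor 5.96% of all genes were higher and 1.95% lower. With no floor 7 were higher and 11 lower, where 12.4% of all genes were higher and 9.42% lower. In oxamate+lactate against oxamate with no floor, 7 of 99 listed genes were higher and 3 lower, beside 3.83% and 4.99% of all genes. In this comparison 0 were lower with a pseudocount of 10 (0.651% of all genes), a floor of 200 (0.290%) or the trend removed (0.307%). The same held relative to the median of all genes (0.423%), with equal gene sums (0.342%) or with equal ERCC sums (0.553%). In oxamate+lactate against control with no floor, 5 of the 99 were higher and 8 lower, beside 8.54% and 8.94% of all genes. A floor of 200 gave 1 higher and 0 lower there, beside 1.45% and 1.21% of all genes. For that comparison 1 was higher with a pseudocount of 10 (2.41% of all genes) or the trend removed (2.55%). A floor changes which genes are counted; the cause of the other shifts was not tested. For the pathway lists, all alternatives other than the floors were added after seeing the data.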
